A study of Homo sapiens with 5 samples.

Results

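PDGFRA SOX10 cells, the human cells of grafted brain organoids that held the transcripts of oligodendrocyte progenitors, were chosen by their own reads: a cell entered when its unique molecular identifiers (UMIs, each standing for 1 captured transcript) of PDGFRA and SOX10 summed to 2 or more. This rule found 185 of 29505 human graft cells (0.627%), of which 180 came from the libraries taken at 4 months post transplantation (4MPT) and 5 from those at 2 months (2MPT). Because PDGFRA and SOX10 chose the cells, their own levels are given as a description and were not tested.

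Oligodendrocyte progenitors are dividing glial cells that arise from the ventricular zones of the developing forebrain, spread through the tissue and persist into adult life. They carry the receptor for platelet-derived growth factor, PDGFRA, and are specified by the transcription factors OLIG1, OLIG2 and SOX10. On commitment they lose PDGFRA, pass through a short stage marked by GPR17 and BCAS1, and then switch on the genes of the myelin sheath, such as MBP.

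The grafts were human brain organoids made from H9 embryonic stem cells that carry a channelrhodopsin-EYFP reporter at the AAVS locus. Organoids at culture day 42 were placed in the prefrontal cortex (PFC) or the hippocampus (HIP) of adult immunodeficient SCID-Beige mice, and tissue with EYFP signal was dissected at 2 or 4 months and profiled by droplet single-cell RNA sequencing. Each combination of site and stage was 1 library (HIP_2MPT, PFC_2MPT, HIP_4MPT and PFC_4MPT) from pooled mice, and another library, D0, held organoids on the day of transplantation. All groups shared the 1 stem cell line and its reporter, the hosts lacked mature lymphocytes, and no group had a second library, so both 4MPT libraries served as the replicates wherever a test was made.

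The deposited matrices held 10111 barcodes with 12451092 UMIs in HIP_2MPT, 6551 with 15734989 in PFC_2MPT, 8406 with 23911467 in HIP_4MPT, 11692 with 20213518 in PFC_4MPT and 5675 with 57135277 in D0. Human cells were barcodes with more than 500 UMIs and 500 genes, a mitochondrial share under 15% and, in the graft libraries, over 80% of UMIs on the human genome. HIP_4MPT and PFC_4MPT gave 6913 and 8363 such cells, and the PDGFRA SOX10 cells among them summed to 289054 and 304455 UMIs. Between 9 and 20 barcode sequences were shared by any pair of graft libraries among human cells, and no barcode was shared between PDGFRA SOX10 cells of different libraries.

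PDGFRA SOX10 cells were found almost only at 4MPT. In HIP_2MPT 1 of 8277 human cells met the rule (0.0121%, exact Clopper-Pearson 95% interval 0.000306 to 0.0673%), and in PFC_2MPT 4 of 5952 did (0.0672%, interval 0.0183 to 0.172%). At 4MPT the counts were 74 of 6913 in HIP_4MPT (1.07%, interval 0.841 to 1.34%) and 106 of 8363 in PFC_4MPT (1.27%, interval 1.04 to 1.53%). Both later libraries lay above both earlier ones, at 1.17% ± 0.139 against 0.0396% ± 0.0390 (SD, n = 2 each), and an exact two-sided permutation test of 2 against 2 libraries cannot give a p below 0.333. The intervals cover counting error only. Other human cells had fewer UMIs at the earlier stage in the hippocampus, with medians of 1253 in HIP_2MPT against 2752 in HIP_4MPT, and more in the prefrontal cortex, with 2358.5 in PFC_2MPT against 1833 in PFC_4MPT. With each cell thinned to 1000 UMIs the share was 0 of 6642 cells in HIP_2MPT, which allows up to 0.0452%, 0.0175% in PFC_2MPT, 0.371% in HIP_4MPT and 0.474% in PFC_4MPT.

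**Figure D1:**
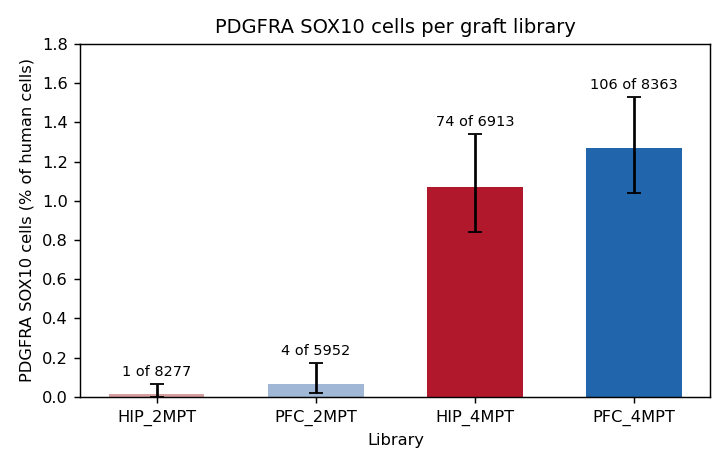
Share of human cells (percent, y axis) that held 2 or more UMIs of PDGFRA and SOX10 in each graft library (x axis), with exact 95% binomial intervals as bars and the counts written above. The libraries at 4MPT sat at 1.07% and 1.27%, and those at 2MPT at 0.0121% and 0.0672%.

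Among the 185 cells, 131 held PDGFRA alone, 40 held both genes and 14 held SOX10 alone. PDGFRA, on chromosome 4 (GRCh38, chr4:54229280-54298245, plus strand), reached 241 UMIs in the 74 cells of HIP_4MPT and 291 UMIs in the 106 cells of PFC_4MPT. As CPM, the UMIs of a gene scaled to the total UMIs of the same cells, these were levels of 834 and 956 CPM, against 6.0 and 10.6 CPM in the other human cells of those libraries. SOX10, on chromosome 22 (chr22:37970686-37987422, minus strand), reached 49 UMIs in each library, or 170 and 161 CPM against 0.709 and 1.21 CPM. PDGFRA thus made up most of the UMIs by which the cells were chosen.

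The label was checked with genes the rule did not use. A UMI of OLIG1 or OLIG2, the paired transcription factors of the lineage, was present in 70 of 74 cells of HIP_4MPT and 95 of 106 of PFC_4MPT. The share was larger in cells with more UMIs of PDGFRA and SOX10: cells with none held OLIG1 or OLIG2 in 22.5% (HIP_4MPT) and 13.7% (PFC_4MPT), cells just outside the threshold, with 1 UMI, in 72.5% and 51.8%, cells just inside, with 2 UMIs, in 90.3% and 83.7%, and cells with 3 or more in 97.7% and 94.7%. In the same order, median depths were 2745, 3344, 3289 and 3879 UMIs in HIP_4MPT. In PFC_4MPT they were 1823.5, 2361, 2708 and 2620 UMIs. The part of depth in these shares was not tested. There were 337 cells with exactly 1 UMI at 4MPT, 80 with exactly 2 and 100 with 3 or more. PDGFRA SOX10 cells made up 0.463% of the human cells under the median UMI count of HIP_4MPT and 1.68% of those at or over it, and 0.431% against 2.10% in PFC_4MPT.

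Markers of vascular, immune and choroid plexus cells were low in these cells and in other human cells. Those of neurons, other glia and the neural crest were not at 0. Fibroblast and pericyte markers, which matter because such cells also carry PDGFRA, summed to 41.5 CPM in HIP_4MPT and 85.4 CPM in PFC_4MPT. Other human cells had 84.1 and 105 CPM of them. In PDGFRA SOX10 cells 9 of these 15 genes were at 0 and COL6A1 was the most abundant. Microglia markers summed to 6.92 and 0 CPM (8 of 10 genes at 0) against 4.35 and 4.47 CPM. Endothelial markers summed to 10.4 and 6.57 CPM (4 of 6 at 0) against 9.07 and 17.0 CPM. All 6 choroid plexus markers were at 0, against sums of 5.29 and 1.93 CPM. Neural crest, Schwann cell and melanocyte markers, of interest because SOX10 is also a neural crest factor, summed to 536 and 404 CPM with 7 of 14 genes at 0, above the 271 and 121 CPM of other human cells. Most of this was PMP2, a lipid-binding protein that glia of the central nervous system also make, and 4 of the 6 genes tested against those cells were higher (DCT, EDNRB, MITF and PMP2). In glial cells compared later, the same list summed to 490 and 303 CPM (OLIG1 EGFR cells) and 927 and 634 CPM (AQP4 GFAP cells). Neuron markers summed to 2653 and 2082 CPM, below the 5418 and 4415 CPM of other human cells, with TBR1 at 0. Inhibitory neuron markers summed to 439 and 608 CPM against 264 and 846 CPM, higher than in other human cells in HIP_4MPT and lower in PFC_4MPT. Astrocyte markers summed to 1612 and 1807 CPM against 2601 and 1504 CPM, and radial glia markers to 3335 and 4155 CPM against 2952 and 2898 CPM. No doublet caller was run, and the part of mixed droplets in these UMIs was not tested.

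Median UMIs per cell were 3733.5 in HIP_4MPT and 2629 in PFC_4MPT for PDGFRA SOX10 cells against 2752 and 1833 for other human cells. Their mitochondrial share had a median of 2.81% and 6.5%, close to the 3.02% and 7.33% of the other cells, and their human share of UMIs a median of 98.0% and 94.8%. Counted against the human genome alone or against the human and mouse genomes together, these cells held the same 118 UMIs (HIP_4MPT) and 67 UMIs (PFC_4MPT) of human MBP, beside 7 and 15 UMIs of mouse Mbp.

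The first comparison asked what sets PDGFRA SOX10 cells apart from the other human cells of the same grafts. In both libraries they were rich in genes of the oligodendrocyte lineage, from progenitor surface proteins to early myelin genes, and poor in genes of excitatory neurons. UMIs were summed over the cells of each kind in HIP_4MPT and PFC_4MPT and compared by edgeR's quasi-likelihood test with library as a block. Of 16098 genes tested, 914 were higher (5.68%) and 1069 lower (6.64%) at an adjusted p under 0.05, 12.3% in either direction, and the median log2 fold change of all genes was -0.17. Of 26 oligodendrocyte progenitor markers tested, 24 were higher, with a median log2 fold change of 3.80, and the same number by DESeq2. The other 2, CSPG4 (17.3 and 3.28 CPM against 1.42 and 1.15 CPM) and VCAN, did not pass.

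APOD, which encodes a secreted lipid carrier, stood out most among the abundant genes. It was at 1010 CPM in HIP_4MPT and 854 CPM in PFC_4MPT in PDGFRA SOX10 cells against 3.92 and 6.94 CPM in other human cells, a log2 fold change of 7.30 ± 0.15 (SE). LHFPL3, a small membrane protein widely used as a progenitor marker, was at 1692 and 752 CPM against 21.4 and 21.1 CPM (log2 fold change 5.61). PCDH15, a protocadherin, was at 962 and 558 CPM against 6.71 and 15.2 CPM (6.01 ± 0.16). In all 3 genes the values of both libraries lay far above those of the other cells, though LHFPL3 and PCDH15 were higher in HIP_4MPT than in PFC_4MPT.

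CA10, a carbonic anhydrase-like protein that binds neurexins, was at 253 and 138 CPM against 1.23 and 2.54 CPM, a log2 fold change of 6.56 ± 0.36 (edgeR quasi-likelihood test, Benjamini-Hochberg adjusted p = 2.9e-72). CNTN1, an adhesion molecule of axons and glia, was at 253 and 259 CPM against 4.39 and 6.76 CPM (5.38). S100B, a calcium-binding protein shared by progenitors and astrocytes, was at 841 and 815 CPM against 21.6 and 27.5 CPM (4.93 ± 0.14). These values differed little between the libraries except for CA10. SCRG1, a secreted glial protein, was at 1211 and 1084 CPM against 136 and 112 CPM (3.06 ± 0.11).

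The lineage's own transcription factors were higher as well. OLIG1 (chr21:33070141-33072413) was at 1868 and 1508 CPM in PDGFRA SOX10 cells against 423 and 195 CPM, a log2 fold change of 2.38 ± 0.09 (edgeR quasi-likelihood test, Benjamini-Hochberg adjusted p = 3.4e-134). OLIG2, its neighbour on the same chromosome (chr21:33025935-33029196), was at 498 and 391 CPM against 67.5 and 41.1 CPM (2.90 ± 0.15). NKX2-2, which promotes oligodendrocyte differentiation, was at 145 and 112 CPM against 1.89 and 3.14 CPM (5.54). SOX8, a relative of SOX10, was at 291 and 115 CPM against 44.4 and 25.7 CPM (2.34), and SOX6, which holds progenitors in the immature state, was at 664 and 453 CPM against 180 and 114 CPM (1.78). OLIG1 was thus an abundant transcript outside these cells too, and NKX2-2 was not.

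Of 15 committed progenitor genes tested, 12 were higher, and by DESeq2 11. The median log2 fold change was 3.02, and 2.86 or 1.51 where 1 or 10 CPM were added to each level. BCAS1, a marker of newly forming oligodendrocytes, was at 560 CPM in HIP_4MPT and 164 CPM in PFC_4MPT against 7.32 and 5.43 CPM in other human cells (log2 fold change 5.57 ± 0.22). GPR17, a receptor that is switched on briefly at commitment, was at 135 and 98.5 CPM against 2.69 and 1.93 CPM (5.49 ± 0.44). TNS3, a focal adhesion protein of the same stage, was at 142 and 78.8 CPM against 3.21 and 4.05 CPM (4.76), and SIRT2, a deacetylase of oligodendrocytes, at 643 and 516 CPM against 65.4 and 62.3 CPM (3.02). NEU4, MPZL1, TCF7L2 and FYN were also higher, with log2 fold changes of 4.24, 1.54, 2.22 and 1.12. FYN was at 661 and 282 CPM against 195 and 176 CPM, so the difference was greater in HIP_4MPT. ITPR2, a calcium channel of the endoplasmic reticulum, was called higher (1.02) on HIP_4MPT alone, at 163 against 41.7 CPM, since in PFC_4MPT it was at 55.8 against 54.5 CPM.

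Of 13 myelin genes tested, 10 were higher and 1 lower (median log2 fold change 4.88, and 3.47 or 1.54 where 1 or 10 CPM were added to each level). One of the 10, ST18, was higher in HIP_4MPT (3.56) and lower in PFC_4MPT (-1.75). MBP (chr18:76978827-77133683), the basic protein of compact myelin, was at 408 and 220 CPM against 6.19 and 5.92 CPM, a log2 fold change of 5.52 ± 0.22 (edgeR quasi-likelihood test, Benjamini-Hochberg adjusted p = 4.5e-130). CLDN11, which seals the sheath, was at 100 and 69.0 CPM against 1.51 and 1.21 CPM (5.78), and UGT8, the enzyme for the glycolipid galactosylceramide, was at 125 and 65.7 CPM against 2.74 and 2.96 CPM (4.88). PLLP, a membrane proteolipid, was at 187 and 240 CPM against 2.55 and 4.59 CPM (5.77), and CNP, a myelin-associated enzyme, at 152 and 158 CPM against 29.2 and 28.6 CPM (2.26). Of the genes of late myelin, MOG, a surface glycoprotein of the sheath, was called higher on 9 and 3 UMIs (31.1 and 9.85 CPM against 0.236 and 0.423 CPM), as was MAG, an adhesion protein of the sheath, on 7 and 1 UMIs (24.2 and 3.28 CPM against 0.472 and 0.302 CPM). MOBP, MAL, OPALIN, ERMN, ASPA, KLK6 and GJB1 were at 0 in these cells in both libraries, and the gene called lower, PLP2, is a membrane protein that is not confined to myelin (6.92 and 16.4 CPM against 25.2 and 30.2 CPM).

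The levels above came from a minority of cells for each myelin gene, and for the progenitor markers it depended on the gene. Of 26 progenitor markers, 15 had a UMI in over 50% of the PDGFRA SOX10 cells of HIP_4MPT and 11 in PFC_4MPT, and of 20 myelin genes none did in either library. CA10 was in 27 of 74 and 23 of 106 cells and NKX2-2 in 23 and 22. Thinned to 1000 UMIs a cell, OLIG1 was detected in 71.2% of PDGFRA SOX10 cells in HIP_4MPT and 65.7% in PFC_4MPT (93.2% and 88.7% unthinned) against 5.38% and 9.46% of AQP4 GFAP cells, the astrocyte-like cells described later, whose own rule left out cells with both OLIG1 and EGFR and so lowered their OLIG1 share. APOD was detected in 38.4% and 37.1% (52.7% and 50% unthinned) against 0 of 390 AQP4 GFAP cells in HIP_4MPT, which allows up to 0.769%, and 0.45% in PFC_4MPT. MBP was detected in 17.8% and 9.52% (31.1% and 15.1% unthinned) against 0.769% and 2.70%, and GPR17 in 11% and 5.71% (21.6% and 13.2% unthinned) against 0 of 390 and 0 of 222, which allows up to 0.769% and 1.35%. Median depths before thinning were 3733.5 and 2629 UMIs in PDGFRA SOX10 cells and 4223 and 3127 in AQP4 GFAP cells.

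Among 16 growth factor receptors and ligands, 5 were higher and 2 lower (median log2 fold change -0.02). ERBB4, a neuregulin receptor, was at 405 and 174 CPM against 53.5 and 69.2 CPM (log2 fold change 2.06 ± 0.17). The neurotrophin receptors NTRK3 and NTRK2 were at 180 and 122 CPM against 31.3 and 33.0 CPM (2.06) and at 86.5 and 85.4 CPM against 28.2 and 21.0 CPM (1.66). FGFR2, a fibroblast growth factor receptor, was lower, at 20.8 and 3.28 CPM against 131 and 120 CPM (-3.57 ± 0.34), as was IGF1R, the insulin-like growth factor 1 receptor, at 76.1 and 98.5 CPM against 122 and 135 CPM (-0.72). EGFR, the epidermal growth factor receptor, was at 180 and 98.5 CPM against 171 and 87.0 CPM and did not pass the test (-0.04, edgeR quasi-likelihood test, Benjamini-Hochberg adjusted p = 0.95). PDGFA, a ligand of PDGFRA, was called higher at low levels, 27.7 and 19.7 CPM against 6.57 and 4.41 CPM.

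The matrix and channel genes of the progenitor surface moved in part. Of 16 matrix genes, 5 were higher (TNR, CSPG5, SPARC, BCAN and PTPRZ1) and 1 lower (TNC), with a median log2 fold change of 1.21. PTPRZ1, a receptor phosphatase whose ectodomain is a chondroitin sulfate proteoglycan, was at 1813 and 1419 CPM against 644 and 380 CPM (1.54), and BCAN, brevican, at 1069 and 759 CPM against 273 and 148 CPM (2.00). VCAN, versican, was at 125 and 105 CPM against 155 and 128 CPM and was not called (-0.46). Of 28 glutamate and GABA receptors and channels, 13 were higher and 2 lower (median 0.46): GRIA4, an AMPA receptor subunit, was at 131 and 82.1 CPM against 6.05 and 4.95 CPM (4.11), and SCN1A, a sodium channel, at 125 and 131 CPM against 12.2 and 11.7 CPM (3.26). Fewer channel genes were called higher without the library block (7) or by DESeq2 (9).

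In the Notch pathway, 4 of 16 genes were higher and 1 lower (median log2 fold change 0.29; by DESeq2 1 higher, and with no library block 1 higher). DLL3, an atypical Notch ligand, was at 526 and 483 CPM against 105 and 153 CPM (1.83). HES5, a target of Notch signalling, was at 1114 and 2651 CPM against 980 and 1483 CPM (0.37), so that the difference between the libraries exceeded that between the kinds of cell. Of 20 cell cycle genes, 7 were higher (median 0.49), among them TOP2A, a topoisomerase of dividing cells, at 277 and 171 CPM against 142 and 95.9 CPM (0.75). That count was 1 by DESeq2 and no cell cycle gene passed in the fit without the library block, in which 5 were higher at an unadjusted p under 0.05.

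Neuronal genes were lower as a group: of 16 neuron markers, 14 were lower (median log2 fold change -2.64, or -2.53 with genes at 0 set to their bound). The median was -2.31 or -0.97 where 1 or 10 CPM were added to each level, and by DESeq2 6 were lower. STMN2, a microtubule regulator of growing axons, was at 190 and 263 CPM against 1620 and 1540 CPM (-2.96). BHLHE22, a transcription factor of cortical neurons, was at 10.4 and 16.4 CPM against 236 and 146 CPM (-3.96). Of 7 regional transcription factors with a value, 5 were lower and 1, ZIC1, higher. Of 11 inhibitory neuron markers only DLX6-AS1 was called, lower.

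Genes that mark other glia moved in both directions against the other human cells. Of 18 astrocyte markers 4 were higher, ID3, SOX9 and HEPACAM among them, and 4 lower (APOE, CLU, AQP4 and SLC1A3), and of 14 radial glia markers 2 were higher (FABP7 and HOPX) and 5 lower. Of 12 glial progenitor markers 5 were higher, among them the OLIG genes and DLL3, and 2 lower, BTG2 and HES6. Of 12 BMP and inhibitor of differentiation genes 2 were higher and 3 lower, of 22 cholesterol synthesis genes TM7SF2 and FDFT1 were higher, and of 14 stress and immediate early genes 4 were higher and 3 lower. Of 6 neural crest, Schwann cell and melanocyte markers with a value, DCT, EDNRB, MITF and PMP2 were higher, and EDNRB, an endothelin receptor that glial progenitors also carry, was at 89.9 and 88.7 CPM against 11.5 and 8.64 CPM.

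Ranked by fold change alone, the 10 leading higher genes with at least 50 CPM were CHRM3-AS2, APOD, KLRC2, CA10, CHRM3, MIR503HG, AL353784.1, LINC02283, SNX22 and AC008080.4. CHRM3, the M3 muscarinic acetylcholine receptor, was at 187 and 158 CPM against 1.04 and 2.42 CPM (log2 fold change 6.54), and CHRM3-AS2, which overlaps it on the opposite strand, was at 41.5 and 72.3 CPM against 0.0945 and 0.362 CPM (7.79). The 3′ library kit keeps the strand of a transcript and Cell Ranger by default counts reads of the sense strand, and no other setting is given in the sources used here. KLRC2, a receptor gene of natural killer cells with near-identical neighbours, was at 48.4 and 59.1 CPM against 0.189 and 0.543 CPM (7.06), and reads of its copies may be split between them. SNX22, a sorting nexin, was at 107 and 69.0 CPM against 0.897 and 1.45 CPM (6.07). The noncoding MIR503HG, AL353784.1, LINC02283 and AC008080.4 had log2 fold changes of 6.51, 6.32, 6.24 and 6.02. AC008080.4 lay almost wholly in the cells that held SOX10 without PDGFRA, with 56 of its 58 UMIs in HIP_4MPT and 27 of 27 in PFC_4MPT, and without those cells, an alternative chosen after the data were seen, it did not pass (0.76). Besides FGFR2 and BHLHE22, leading lower genes were SSTR2, a somatostatin receptor with 1 UMI in PDGFRA SOX10 cells (63.0-fold lower, counting interval 11.3 to 2491), MPPED1 with 2 UMIs (21.0-fold, 5.82 to 174), ARL9 with 2 (17.6-fold, 4.86 to 145), KIAA1324 with 3 (11.2-fold, 3.81 to 54.2), and SLA, NKAIN2 and LINC01405, whose log2 fold changes were -3.90, -3.61 and -3.52.

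The test rests on 4 sums and 1 residual degree of freedom. Its p-values measure how the difference between the kinds of cell varied between these 2 libraries, with the spread shared across genes by edgeR. The libraries came from different host sites, and this spread may be partly technical. Both libraries need not agree: ST18 was called higher with log2 ratios of 3.56 in HIP_4MPT and -1.75 in PFC_4MPT. By DESeq2 790 genes were called and without the library block 673, and with cells under 1500 UMIs left out of both sides 1865.

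**Figure D2:**
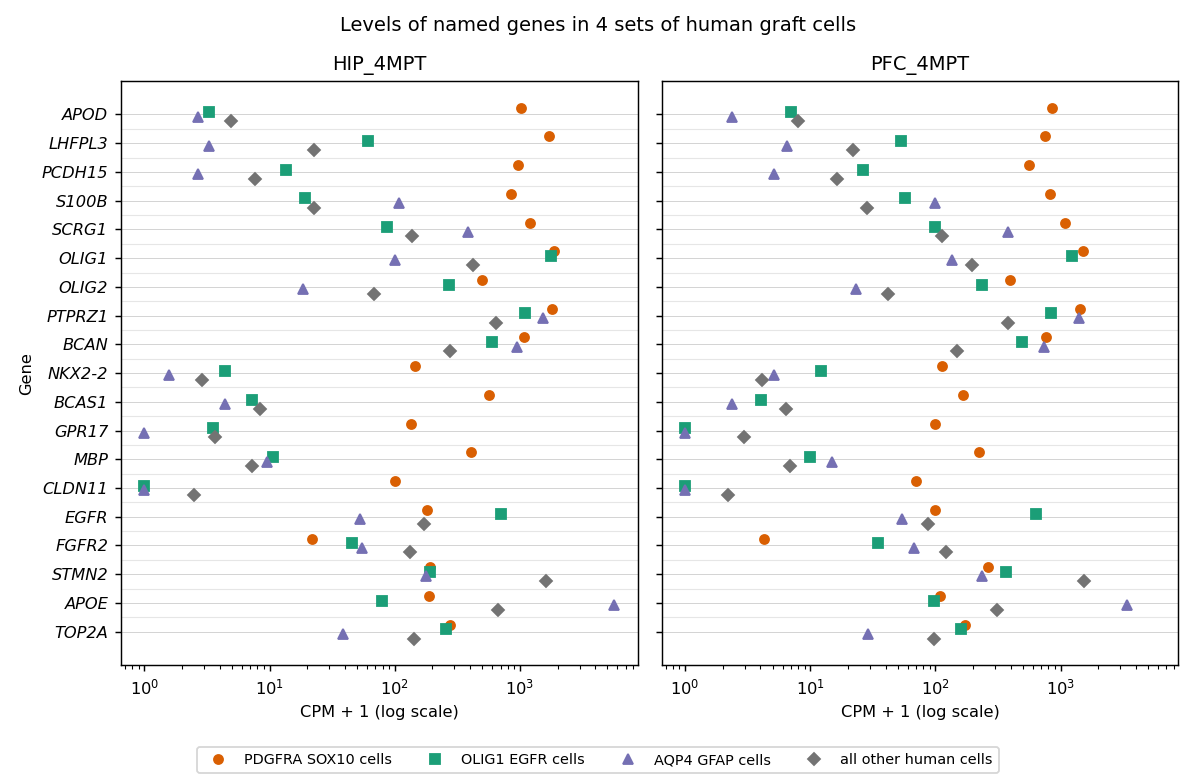
Levels of named genes (CPM + 1, log scale, x axis) in HIP_4MPT and PFC_4MPT, with 1 point per library for PDGFRA SOX10 cells (circles), OLIG1 EGFR cells (squares), AQP4 GFAP cells (triangles) and all other human cells (diamonds). APOD reached 1010 and 854 CPM in PDGFRA SOX10 cells and under 10 CPM in the other sets, OLIG1 and EGFR in OLIG1 EGFR cells are set in part by the rule that chose those cells, and PTPRZ1 was about as high in AQP4 GFAP cells.

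The second comparison set PDGFRA SOX10 cells against OLIG1 EGFR cells, human cells of the same libraries with a UMI of OLIG1 and of EGFR that were not PDGFRA SOX10 cells and held fewer than 2 UMIs of AQP4 and GFAP. There were 871 in HIP_4MPT and 449 in PFC_4MPT, with median depths of 3743 and 2765 UMIs, close to those of PDGFRA SOX10 cells. OLIG1 and EGFR chose these cells and were not tested. Of 9574 genes tested, 637 were higher in PDGFRA SOX10 cells (6.65%) and 413 lower (4.31%), with a median log2 fold change of -0.03 over all genes. PDGFRA SOX10 cells had more of nearly all progenitor, committed and myelin markers tested, and less of 7 of 13 Notch pathway genes.

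Of 24 progenitor markers tested, 22 were higher (median log2 fold change 3.65; by DESeq2 18). Genes scarce in OLIG1 EGFR cells, such as CA10 with 3 UMIs there, could pass the low-count filter through PDGFRA SOX10 cells alone. APOD was at 1010 and 854 CPM against 2.28 and 6.02 CPM (7.90 ± 0.25), LHFPL3 at 1692 and 752 CPM against 60.7 and 51.9 CPM (4.23 ± 0.19), and PCDH15 at 962 and 558 CPM against 12.5 and 25.6 CPM (5.32). OLIG2 differed far less, at 498 and 391 CPM against 269 and 235 CPM, a log2 fold change of 0.61 ± 0.13 (edgeR quasi-likelihood test, Benjamini-Hochberg adjusted p = 0.0068). BCAN and PTPRZ1 were higher by 0.53 and 0.52, and SOX8 and SOX6 by 0.66 and 0.95. S100B, the calcium-binding protein, was higher by 4.49 and the transcription factor NKX2-2 by 4.22. Small and large differences thus occurred among both surface genes and transcription factors. Without the cells that held SOX10 alone, 18 of 23 progenitor markers were higher, and SOX8 (0.56), BCAN (0.15) and DSCAM (0.54) did not pass.

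Of 16 committed progenitor genes 11 were tested and 10 were higher, and of 20 myelin genes 8 were tested and 7 were higher. Their medians were 2.64 and 4.39, and by DESeq2 7 and 5 were higher. CLDN11, with 0 UMIs in OLIG1 EGFR cells, passed the low-count filter through PDGFRA SOX10 cells alone, so the filter set these tallies in part. Without the cells that held SOX10 alone these counts were 5 of 9 and 3 of 5, and FYN (0.54), TCF7L2 (0.37), ITPR2 (1.31) and CNP (0.65) did not pass. MBP was at 408 and 220 CPM against 9.68 and 9.03 CPM (4.94 ± 0.25), BCAS1 at 560 and 164 CPM against 6.26 and 3.01 CPM (6.14), and PLLP had a log2 fold change of 5.56. CLDN11 had 0 UMIs in OLIG1 EGFR cells and was at least 136-fold higher in PDGFRA SOX10 cells, with a floor of 3 UMIs taken over both libraries. The genes that led by fold change were CLDN11, KLRC2 (at least 87.0-fold), AC008080.4, SNX22, CA10, CALCRL, APOD, CNTN1, CHRM3 and PTGDS. KLRC2 also had 0 UMIs in OLIG1 EGFR cells and passed the filter in the same way as CLDN11. With 3 UMIs of CA10 in OLIG1 EGFR cells the ratio was 313-fold (counting interval 104 to 1538), and for CALCRL, a peptide hormone receptor also with 3 UMIs, 111-fold (35.6 to 563). For AC008080.4 and SNX22, with 1 UMI each, the ratios were 693-fold (121 to 27698) and 424-fold (72.8 to 17068), the former almost wholly from cells with SOX10 alone. PTGDS, a prostaglandin D synthase of glia, was at 422 and 388 CPM against 2.85 and 6.77 CPM (6.42 ± 0.27).

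Notch pathway genes were lower in PDGFRA SOX10 cells: 7 of 13 tested were lower (median log2 fold change -1.18; by DESeq2 4, and without the library block 5). HES5 was at 1114 and 2651 CPM against 3089 and 5943 CPM, a log2 fold change of -1.52 ± 0.08 (edgeR quasi-likelihood test, Benjamini-Hochberg adjusted p = 1.2e-08). HES6 was at 349 and 532 CPM against 857 and 1102 CPM (-1.37), and HES1 at 291 and 345 CPM against 433 and 677 CPM. DLL1, a Notch ligand, was at 69.2 and 36.1 CPM against 152 and 136 CPM (-1.67). HES5 was lower within each library, although its level in PDGFRA SOX10 cells of PFC_4MPT came near the level of OLIG1 EGFR cells in HIP_4MPT.

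Cell cycle genes did not separate the 2 kinds of cell. Of 19 tested, 0 passed by edgeR's quasi-likelihood test or by DESeq2, and 1 was lower at an unadjusted p under 0.05 by edgeR (median log2 fold change -0.30). CENPF, a kinetochore protein, was at 270 and 122 CPM against 186 and 120 CPM (0.13 ± 0.18). Channel genes were higher in 15 of 25 cases (median 1.29; by DESeq2 8). KCND2, a potassium channel, was at 948 and 535 CPM against 159 and 120 CPM (2.19), and GRIA2, an AMPA receptor subunit, at 450 and 263 CPM against 59.2 and 63.2 CPM (2.36). Of 12 neuron markers 3 were higher as well (INA, GAP43 and SYT1, by 3.37, 1.32 and 0.75) and 2 lower, RBFOX3 among them, while by DESeq2 0 were higher (2 at an unadjusted p under 0.05) and 1 lower. The list summed to 2653 and 2082 CPM against 2082 and 1862 CPM, and its part in the channel genes was not tested.

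The inhibitory neuron genes DLX1, DLX5 and GAD2 were higher (log2 fold changes 1.78, 2.24 and 1.68), 3 of 7 tested and 3 by DESeq2, and GAD2 was at 121 and 161 CPM against 18.2 and 66.2 CPM. Genes that led among those lower were IGFBP5, EFHD2, ARHGAP24, CYYR1, AP000282.1, EZR, SP5, BTG2, TFRC and GSX1. IGFBP5, a binding protein for insulin-like growth factors, was at 20.8 and 23 CPM against 262 and 132 CPM (-3.35), BTG2, an inhibitor of proliferation, at 104 and 102 CPM against 406 and 388 CPM (-2.16 ± 0.17), and EZR, a linker of membrane and actin, at 38.1 and 39.4 CPM against 204 and 133 CPM (-2.32). GSX1, a factor of the ganglionic eminences, was at 31.1 and 23 CPM against 60.7 and 131 CPM (-2.01). Of 14 stress and immediate early genes 4 were lower (IER2, EGR1, JUNB and FOS). DESeq2 called 467 genes in this comparison and the fit without the library block 438.

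The third comparison took AQP4 GFAP cells, human cells with 2 or more UMIs of the astrocyte genes AQP4 and GFAP that were neither PDGFRA SOX10 cells nor held both OLIG1 and EGFR, 396 in HIP_4MPT and 224 in PFC_4MPT. Of 8266 genes tested, 817 were higher in PDGFRA SOX10 cells (9.88%) and 859 lower (10.4%), 20.3% in either direction, with a median log2 fold change of 0.00. Most progenitor, myelin, channel, inhibitory neuron and cell cycle genes tested were higher in PDGFRA SOX10 cells, and most astrocyte and radial glia genes were lower.

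Progenitor markers were higher in 21 of 24 cases (median log2 fold change 4.11; by DESeq2 17). Of the 24, 2 had 0 UMIs in AQP4 GFAP cells, CA10 among them. Such genes passed the low-count filter through PDGFRA SOX10 cells alone, so the filter set this tally in part. APOD was at 1010 and 854 CPM against 1.69 and 1.39 CPM (9.08 ± 0.36), LHFPL3 had a log2 fold change of 8.62, PCDH15 one of 8.30, and OLIG2 was at 498 and 391 CPM against 17.5 and 22.2 CPM (4.54 ± 0.28). S100B and SCRG1 were well expressed in both, at 841 and 815 CPM against 107 and 98.4 CPM (2.99) and at 1211 and 1084 CPM against 384 and 380 CPM (1.58). PTPRZ1 and BCAN did not pass (0.13 and 0.10, with Benjamini-Hochberg adjusted p = 0.666 and 0.771 by edgeR's quasi-likelihood test).

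Of 16 committed progenitor genes 10 were tested and 9 were higher, and of 20 myelin genes 7 were tested and 6 were higher. Their medians were 2.13 and 4.98, and by DESeq2 6 and 4 were higher. Without the cells that held SOX10 alone the counts were 5 of 7 and 3 of 6. GPR17 and CLDN11, with 0 UMIs in AQP4 GFAP cells, passed the low-count filter through PDGFRA SOX10 cells alone. The filter thus set these tallies in part. MBP was at 408 and 220 CPM against 8.45 and 13.9 CPM (4.98 ± 0.32). The leading higher genes included many with 0 UMIs in AQP4 GFAP cells, which were CA10 (at least 161-fold), GPR17 (at least 96.7-fold), MIR503HG (at least 74.3-fold), AL353784.1 (at least 71.5-fold), CLDN11 (at least 70.1-fold), VSTM2B (at least 65.9-fold) and KLRC2 (at least 44.9-fold). Having no UMI there, they too passed the low-count filter through PDGFRA SOX10 cells alone. COL20A1, a collagen of the progenitor list, had 1 UMI in AQP4 GFAP cells and a ratio of 307-fold (counting interval 53.4 to 12293). NEU4, a sialidase, also had 1 UMI in them and a ratio of 172-fold (29.3 to 6976).

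Cell cycle genes were higher in 15 of 16 cases (median log2 fold change 2.72; by DESeq2 9). TOP2A was at 277 and 171 CPM against 37.7 and 27.7 CPM (2.76), and CENPF at 270 and 122 CPM against 15.8 and 11.1 CPM (3.88 ± 0.32). A few PDGFRA SOX10 cells carried much of this: in HIP_4MPT 2 cells held 120 and 144 of the 513 UMIs of the whole list. The 5 cells with the most TOP2A held 86% of its UMIs in HIP_4MPT and 62% in PFC_4MPT. Of 24 channel genes, 16 were higher and 3 lower (median 1.61), with KCND2 at 948 and 535 CPM against 125 and 48.5 CPM (3.11). Among Notch pathway genes, 3 of 12 were higher (DLL3, DLL1 and HES6) and 4 lower (NOTCH3, LFNG, HES1 and NOTCH1). Some neuronal genes were higher as well. They were 5 of 7 inhibitory neuron markers (DLX1, DLX2, GAD2, GAD1 and DLX5, by DESeq2 5) and 4 of 9 neuron markers (GAP43, BCL11B, DCX and SYT1, by DESeq2 1). The median over the 7 inhibitory neuron markers was 3.88. GAD2, which makes the transmitter GABA, was at 121 and 161 CPM against 1.69 and 23.6 CPM (3.89). Over the whole lists, inhibitory neuron markers summed to 439 and 608 CPM against 111 and 187 CPM, with SLC32A1, the vesicular GABA transporter, at 0 in PDGFRA SOX10 cells, and neuron markers to 2653 and 2082 CPM against 2560 and 2433 CPM. The part of neuronal RNA in the channel genes was not tested.

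Astrocyte markers were lower in 14 of 15 cases and radial glia markers in 12 of 14 (medians -2.07 and -1.69; by DESeq2 9 and 9). APOE, the main lipid carrier of astrocytes, was at 187 and 108 CPM against 5674 and 3366 CPM, a log2 fold change of -4.95 ± 0.20 (edgeR quasi-likelihood test, Benjamini-Hochberg adjusted p = 2.5e-33). CLU, clusterin, was at 277 and 276 CPM against 5340 and 3283 CPM (-3.93), and VIM, vimentin, had a log2 fold change of -2.80. The inhibitor of differentiation ID4 was at 76.1 and 95.3 CPM (-3.86), 1 of 6 BMP and ID genes that were lower of 9. Of 12 growth factor receptors and ligands, 6 were lower (the receptors LPAR1, FGFR2, LIFR, FGFR3 and NTRK2 and the ligand PDGFD) and 2 higher (ERBB4 and NTRK3, by 1.61 and 1.31). NTRK2, higher than in other human cells at large, was here at 86.5 and 85.4 CPM against 226 and 220 CPM (-1.39).

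Cholesterol synthesis genes were lower in 8 of 19 cases (median log2 fold change -0.93; by DESeq2 2). HMGCS1, an early enzyme of the pathway, was at 111 and 115 CPM against 346 and 269 CPM (-1.45). The leading lower genes with few UMIs in PDGFRA SOX10 cells were BST2 (0 UMIs, at least 9.27-fold lower), RASL10A (1 UMI, 97.7-fold, counting interval 17.4 to 3869), FSTL5 (1 UMI, 61.3-fold, 10.9 to 2432), MT1M (3 UMIs, 51.5-fold, 17.5 to 250.4), PDGFRB (1 UMI, 38.8-fold, 6.86 to 1540), IL33 (2 UMIs, 35.7-fold, 9.79 to 296), CHST1, MT1F and FYB2. MT1M and MT1F belong to the near-identical metallothioneins and are uncertain for that reason. PDGFRB, the sister receptor of PDGFRA, is also a pericyte gene. DESeq2 called 497 genes here and the fit without the library block 1053.

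PDGFRA SOX10 cells were not uniform, and the myelin transcripts lay mostly in the few cells that held SOX10 without PDGFRA. HIP_4MPT had 51 cells with PDGFRA alone, 16 with both and 7 with SOX10 alone, and PFC_4MPT had 75, 24 and 7. Since these groups follow from the genes that chose the cells, their values are a description with no test. Median depths were 3242, 4168 and 4724 UMIs in HIP_4MPT and 2612, 2582 and 3164 UMIs in PFC_4MPT, so the cells with SOX10 alone were the deepest in each library.

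MBP in HIP_4MPT was at 108 CPM (20 UMIs) in the cells with PDGFRA alone, 95.9 CPM (6 UMIs) in those with both and 2263 CPM (92 UMIs) in those with SOX10 alone, where 7 of 7 cells held it. In PFC_4MPT the 3 values were 60.2, 0 and 2142 CPM (13, 0 and 54 UMIs). The cells with SOX10 alone carried 78% of all MBP UMIs of the PDGFRA SOX10 cells in HIP_4MPT and 80.6% in PFC_4MPT. Most MBP UMIs of the PDGFRA SOX10 cells thus came from 7 cells in HIP_4MPT and from 6 in PFC_4MPT, while other human cells held 131 and 98 MBP UMIs.

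BCAS1 was at 0, 288 and 3543 CPM in HIP_4MPT, and in PFC_4MPT at 9.26, 15.8 and 1864 CPM, again in the order PDGFRA alone, both, SOX10 alone. Among PDGFRA SOX10 cells CLDN11 was found in none but those with SOX10 alone, with 29 UMIs in 7 cells of HIP_4MPT (713 CPM) and 21 UMIs in 5 cells of PFC_4MPT (833 CPM). MYRF, the transcription factor that switches on myelin genes, had 9 UMIs in 4 such cells in HIP_4MPT and 4 UMIs in 4 in PFC_4MPT. It had none in the other PDGFRA SOX10 cells, and 13 and 9 UMIs in the other human cells. GPR17 was at 26.9, 112 and 664 CPM in HIP_4MPT, and in PFC_4MPT at 32.4, 15.8 and 873 CPM, and TNS3 at 0, 64.0 and 910 CPM and at 27.8, 31.6 and 635 CPM. SIRT2, FYN and CNP were likewise highest in the cells with SOX10 alone, at 3051, 2805 and 787 CPM in HIP_4MPT, and in PFC_4MPT at 4085, 1388 and 1230 CPM.

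Many progenitor markers had another order. Of 26, 14 were highest in both libraries in the cells that held both genes, 8 in those with SOX10 alone (NKX2-2, SCRG1, BCAN, SOX6, TNR, SEMA5A, B3GNT7 and DSCAM) and 1 in those with PDGFRA alone, whereas of 20 myelin genes 8 were highest in those with SOX10 alone and 1 in those with both. APOD was at 662, 2142 and 861 CPM in HIP_4MPT, and in PFC_4MPT at 602, 1581 and 1190 CPM. OLIG1 was at 1856, 2862 and 394 CPM and at 1458, 1993 and 714 CPM, S100B at 656, 1727 and 320 CPM and at 662, 1439 and 555 CPM, and LHFPL3 at 1356, 3198 and 910 CPM and at 662, 1281 and 198 CPM. PLLP, although it is listed as a myelin gene, was highest in the cells with both, at 145, 400 and 49.2 CPM in HIP_4MPT, and in PFC_4MPT at 218, 411 and 0 CPM. NKX2-2 was at 53.8, 240 and 418 CPM and at 55.6, 94.9 and 635 CPM, and SCRG1 at 646, 1998 and 2583 CPM and at 824, 1313 and 2737 CPM, both highest in the cells with SOX10 alone. PCDH15 was at 73.8 and 39.7 CPM in the cells with SOX10 alone, against 942 and 537 CPM in those with PDGFRA alone.

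EGFR and HES5 were highest in the cells with PDGFRA alone. EGFR was at 274, 0 and 24.6 CPM in HIP_4MPT, and in PFC_4MPT at 130, 31.6 and 0 CPM. HES5 was at 1383, 671 and 566 CPM and at 3088, 2198 and 39.7 CPM. TOP2A was at 371, 16 and 246 CPM and at 213, 94.9 and 0 CPM. The 246 CPM of the HIP_4MPT cells with SOX10 alone were 10 UMIs in 1 of 7 cells.

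Left without the cells that held SOX10 alone, an alternative chosen after the data were seen, the comparison with all other human cells had 24 of 26 progenitor markers called higher, but 7 of 14 committed progenitor genes and 3 of 9 myelin genes. MBP then had a log2 fold change of 3.44 in place of 5.52, GPR17 3.87 in place of 5.49, BCAS1 2.45 in place of 5.57, and PLLP 5.90 in place of 5.77. CLDN11, CNP, FYN, ST18 and ITPR2 no longer passed.

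**Figure D3:**
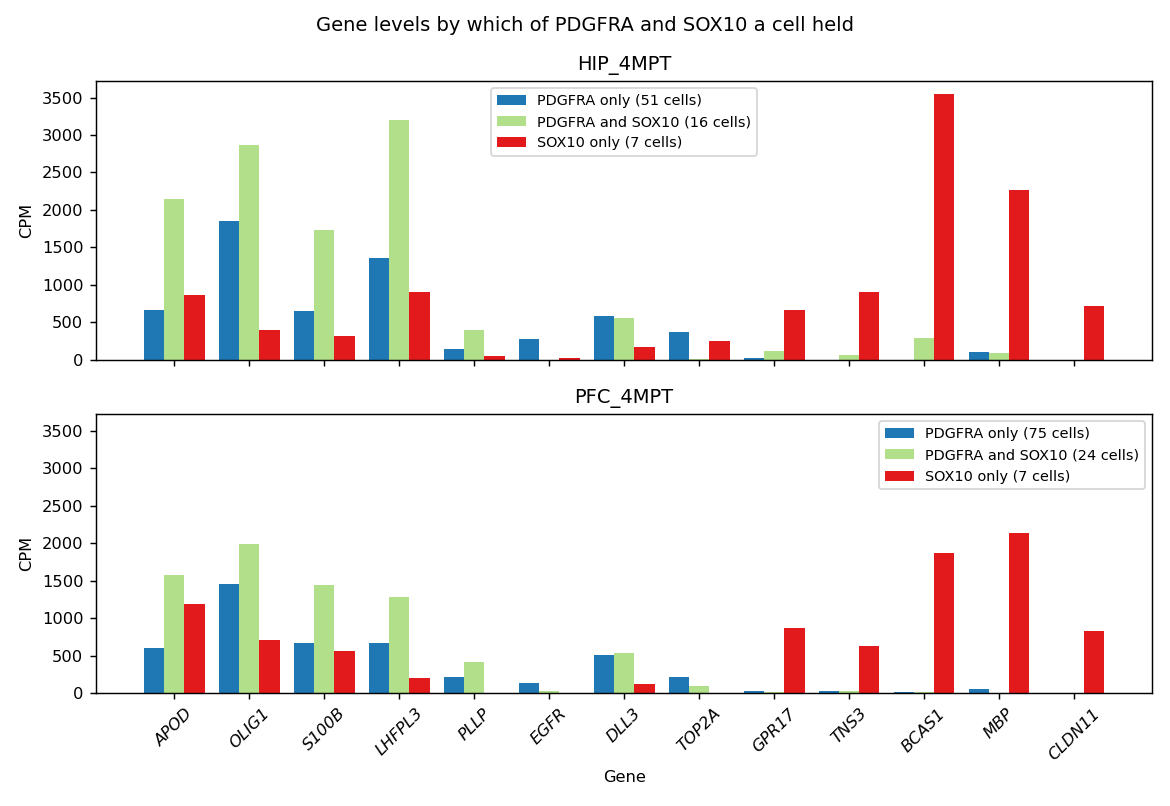
Levels of 13 genes (CPM, linear y axis from 0) in PDGFRA SOX10 cells of HIP_4MPT (upper panel) and PFC_4MPT (lower panel), split by whether a cell held PDGFRA alone, both genes or SOX10 alone, with 1 bar per group and library and no replicate error. BCAS1, MBP and CLDN11 were highest in the cells with SOX10 alone (MBP 2263 and 2142 CPM), and APOD, OLIG1 and S100B were highest in the cells with both.

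Transcripts of differentiation and of division were also counted cell by cell. At least 5 UMIs of the committed progenitor and myelin genes together were held by 41 of 74 PDGFRA SOX10 cells in HIP_4MPT (55.4%, exact 95% interval 43.4 to 67.0%) and 35 of 106 in PFC_4MPT (33.0%, 24.2 to 42.8%). The list holds genes that other cells also express, such as FYN and SIRT2, and 7% and 2.90% of OLIG1 EGFR cells and 18.9% and 8.48% of AQP4 GFAP cells reached the same number. Cells with 5 or more cell cycle UMIs numbered 12 (16.2%, 8.67 to 26.6%) and 17 (16%, 9.63 to 24.4%), against 17.2% and 14.7% of OLIG1 EGFR cells and 2.02% and 2.68% of AQP4 GFAP cells. Of the cycling cells, 5 of 12 in HIP_4MPT and 1 of 17 in PFC_4MPT also had 5 or more committed and myelin UMIs, and 26 and 55 cells met neither condition. Cells at 4 UMIs of the committed and myelin genes, just under the line, numbered 9 and 11, and at 5, just over it, 7 and 5.

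EGFR was lower in the cells with 5 or more committed and myelin UMIs, at 57.7 CPM against 363 CPM in the rest of HIP_4MPT and 35.8 against 135 CPM in PFC_4MPT. APOD was at 1471 against 320 CPM and 1478 against 493 CPM, and SCRG1 at 1662 against 536 CPM and 1738 against 705 CPM, both higher in these cells although neither gene was used to count them. Cycling cells had less OLIG1 than the rest, at 677 against 2174 CPM in HIP_4MPT and 654 against 1778 CPM in PFC_4MPT. MBP was at 271 CPM (16 UMIs) against 444 CPM in cycling cells of HIP_4MPT, while those of PFC_4MPT had 0 UMIs of it, against 290 CPM in the rest. Of the 12 cycling cells of HIP_4MPT, 1 held 118 committed and myelin UMIs and the others at most 12. Groups set by UMI counts follow depth in part: cells with 5 or more committed and myelin UMIs had medians of 3907 and 2789 UMIs against 3289 and 2442.

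Thinned to 1000 UMIs, 56.2% of 73 PDGFRA SOX10 cells in HIP_4MPT and 37.1% of 105 in PFC_4MPT held 2 or more committed and myelin UMIs, against 8.79% and 7.17% of OLIG1 EGFR cells and 16.4% and 15.3% of AQP4 GFAP cells. For cell cycle genes the shares were 15.1% and 18.1%, near the 16.5% and 14.8% of OLIG1 EGFR cells and above the 3.08% and 3.6% of AQP4 GFAP cells. The committed share of PFC_4MPT depended on depth, since at 1500 UMIs it was 52.5%, against 54.9% in HIP_4MPT.

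**Figure D4:**
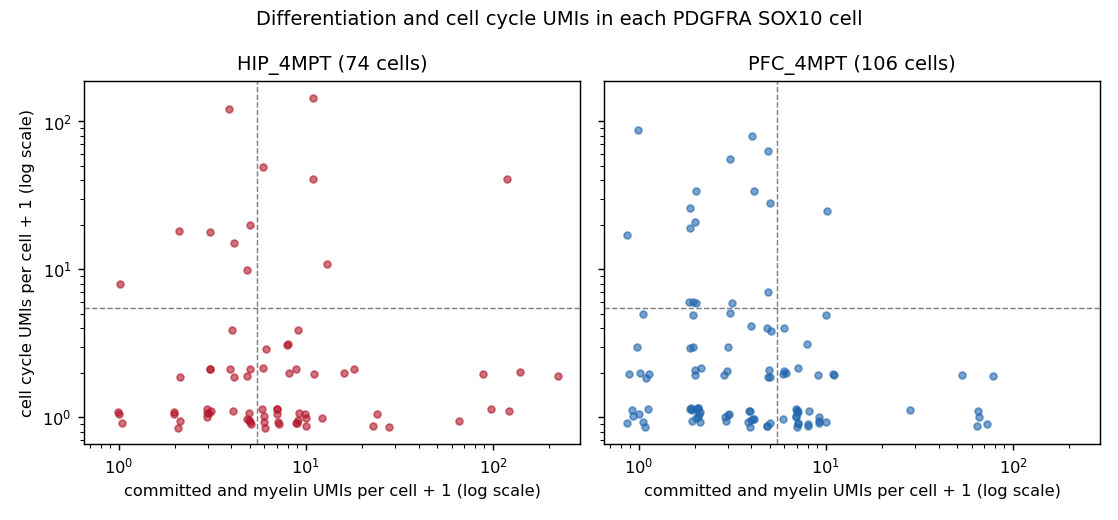
Each PDGFRA SOX10 cell of HIP_4MPT (74 cells) and PFC_4MPT (106 cells) by its UMIs of committed progenitor and myelin genes (x axis) and of cell cycle genes (y axis), both plus 1 on log scales with a small seeded jitter; dashed lines mark the step from 4 to 5 UMIs. Past both lines lay 5 cells in HIP_4MPT and 1 in PFC_4MPT, and a few cells in each library stood far to the right.

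Between the host sites there was 1 library each, so the following values carry counting error only, with exact Poisson 95% intervals, and no test was made. Site, pool of mice and library cannot be told apart. PDGFRA SOX10 cells of HIP_4MPT had more committed progenitor UMIs, at 2903 CPM summed over the list (2709 to 3106) against 1498 CPM (1363 to 1642) in PFC_4MPT, and more myelin UMIs, at 1422 CPM (1288 to 1566) against 916 CPM (812 to 1030). For MBP the levels were 408 CPM (338 to 489) and 220 CPM (171 to 279), a log2 ratio of 0.89 where the other human cells of the same libraries had 0.06. BCAS1 was at 560 against 164 CPM (log2 ratio 1.76, other cells 0.37) and FYN at 661 against 282 CPM (1.22, other cells 0.15). The cells with SOX10 alone, which held most of the MBP and BCAS1 UMIs of PDGFRA SOX10 cells and 59.7% and 40.7% of those of FYN, were 7 of 74 in HIP_4MPT and 7 of 106 in PFC_4MPT, and their part in the difference was not tested.

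Of 2659 genes with at least 40 UMIs over the PDGFRA SOX10 cells of both libraries, 211 (7.94%) differed 2-fold or more between the sites, 175 (6.58%) higher in HIP_4MPT and 36 (1.35%) higher in PFC_4MPT, with a median log2 ratio of 0.04. LHFPL3 was higher in HIP_4MPT, at 1692 against 752 CPM (log2 ratio 1.17), with no such difference in other human cells (0.02). PCDH15 was also higher there (0.78) while other cells had it lower (-1.07). For OLIG1 (0.31), other human cells had a larger ratio (1.11). ST18, a transcription factor shared by oligodendrocytes and neurons, was at 114 CPM (33 UMIs in 9 cells) against 6.57 CPM (2 UMIs in 2 cells), a log2 ratio of 3.93, where the other human cells had -1.39.

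Higher in PFC_4MPT was HES5, at 1114 CPM (996 to 1243) against 2651 CPM (2471 to 2840), a log2 ratio of -1.25 where other cells had -0.60. HES6 followed, at 349 against 532 CPM (-0.61, other cells -0.35), whereas the ligand DLL3 was at 526 and 483 CPM with overlapping intervals. FOS, an immediate early gene, was at 1806 against 2927 CPM (-0.70), and other cells had a ratio of the same size (-0.84). Stress and immediate early genes summed to 5604 CPM in HIP_4MPT and 7745 CPM in PFC_4MPT, beside the higher mitochondrial share of the latter. The same list summed to 5595 and 8402 CPM in the other human cells of these libraries, so the shift was not particular to PDGFRA SOX10 cells.

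The 8 genes with the largest ratio towards HIP_4MPT were ZHX3, LINC01170, CCSER1, PKP4, KCNQ1OT1, BTRC, BACH2 and PCDH7. ZHX3, a transcription factor gene, was at 131 against 19.7 CPM (log2 ratio 2.68, other cells 1.11), in 23 and 6 cells. LINC01170 and KCNQ1OT1 had ratios of 2.54 and 2.05, near those of other cells for the latter (1.72). CCSER1 and BTRC had ratios of 2.39 and 2.00 that fell to 0.85 and 0.24 in cells with 3 or more UMIs of PDGFRA and SOX10. PCDH7, a protocadherin, was at 384 against 105 CPM (1.86, other cells 1.23). Towards PFC_4MPT the 8 were DUSP1, HES4, IFI6, LGALS1, DNPH1, DCUN1D5, OOEP and MAF1. HES4, of the same family as HES5, was at 93.4 against 388 CPM (-2.04, other cells -0.56), LGALS1, galectin 1, at 114 against 394 CPM (-1.78, other cells -0.34), and DUSP1, a stress-induced phosphatase, at 31.1 against 141 CPM (-2.15, other cells -1.34).

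**Figure D5:**
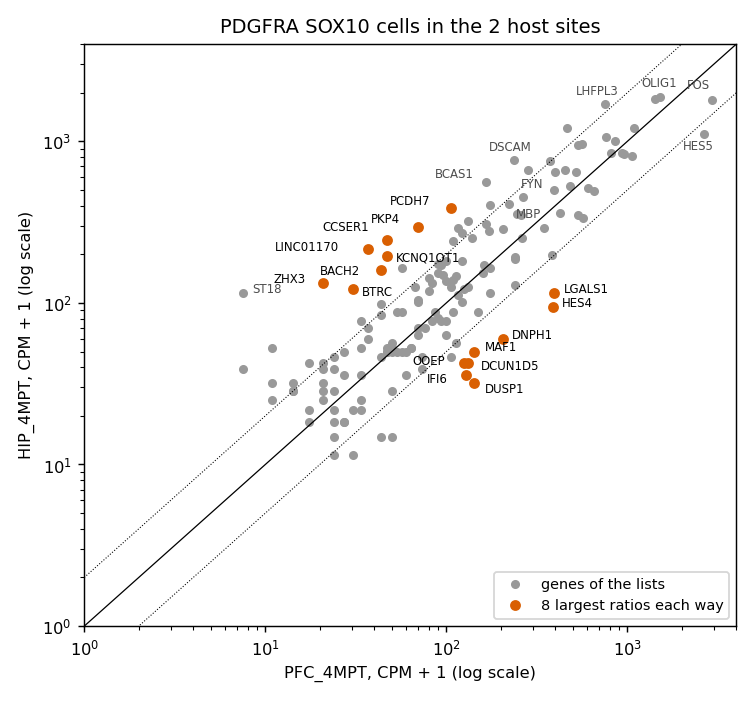
Levels in PDGFRA SOX10 cells of PFC_4MPT (x axis) and HIP_4MPT (y axis), CPM + 1 on log scales, for genes of the lists (grey) and the 8 genes with the largest ratios each way (orange), 1 library per site; the solid line marks equal levels and the dotted lines 2-fold. BCAS1 (560 against 164 CPM) and ST18 lay towards HIP_4MPT and HES5 (1114 against 2651 CPM) and HES4 towards PFC_4MPT.

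The 5 cells of 2MPT were described one by one. The cell of HIP_2MPT had 1944 UMIs, with 2 of PDGFRA and 2 of TOP2A and no UMI of OLIG1 or OLIG2. The 4 cells of PFC_2MPT had 4289 to 8070 UMIs, with 2 to 3 of PDGFRA, 1 to 5 of OLIG1, 1 to 4 of EGFR and 4 to 13 of TOP2A. None of the 5 had a UMI of SOX10 or MBP, so all entered through PDGFRA, and all 5 held TOP2A. In D0, 7 of 4900 cells (0.143%) met the same rule before grafting, but none had a UMI of OLIG1 or OLIG2. Their median depth was 35160 UMIs. Of fibroblast markers, the collagen gene COL1A2 had 16, 8, 6 and 1 UMIs in 4 of them. COL1A1 had 3 and 4 UMIs, COL3A1 had 3 and DCN had 1 and 5, each in fewer cells. These markers were not compared with other D0 cells.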

How the data were processed

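Human organoid cells from 4 graft libraries and the ungrafted D0 library were analysed from the UMI count matrices deposited by the authors, which hold raw counts of UMIs per gene and barcode. Per the file headers they were made with Cell Ranger 3.1.0 (D0) and 5.0.0 (grafts), and the submitters' processing notes name Cell Ranger 3.1. Counts on GRCh38 alone were used for all libraries, and counts on the human and mouse genomes together for the graft libraries. Gene positions are from GENCODE release 44.

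The PDGFRA SOX10 cells and all gene lists (22) were chosen with earlier results of these data known. Cell filters were more than 500 UMIs and 500 genes, under 15% mitochondrial UMIs and, in the graft libraries, over 80% human UMIs. No doublets were removed. UMIs were summed per library and kind of cell in libraries with at least 20 cells of each kind, which left HIP_4MPT and PFC_4MPT. Sums were compared in R 4.3.3 with edgeR 4.0.16 (filterByExpr, TMM, quasi-likelihood F test, library as a block, threshold 0.05 after Benjamini-Hochberg adjustment over all genes tested), and DESeq2 1.42.0 was an alternative. The library block pairs sums of the same droplet run, so its pairing comes from the design. A gene scarce in the comparison cells could pass the low-count filter through PDGFRA SOX10 cells alone. List tallies of higher genes can therefore be set in part by that filter. CPM are sums divided by all UMIs of the same cells. A test on simulated data with 100 genes changed 4-fold and 100 changed 2-fold in the comparison with all other human cells (16059 genes) found 85 and 13. The changed genes averaged at least 15 UMIs per sum of PDGFRA SOX10 cells, and the dispersion was set to 0.05 for all genes. In that simulation 2-fold changes were mostly missed. Its spread was not fitted to these data, so it does not tell which changes the real fit missed. Python 3.11.15, numpy 2.4.6, pandas 2.3.3 and scipy 1.17.1 computed shares, intervals and thinned counts.

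Genes named were, in each direction, 10 called genes of greatest fold change with at least 50 CPM on the higher side and the same direction in both libraries; list genes of at least 50 CPM in the progenitor, committed, myelin and receptor lists, with examples of the other lists; and, between sites, the 8 genes per direction with the largest CPM ratio (pseudocount 1) among genes with 40 or more UMIs, leaving out mitochondrial genes. Some genes these rules name are not reported here. Depth per library is given with the results. Alternatives covered the tool, scaling, low-count filter, block, choice of cells, reference and depth.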

Additional observations from a re-analysis of the deposited data

Results flagged for a closer look

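ST18, a transcription factor gene of the myelin list, moved in opposite directions in the 4MPT libraries when PDGFRA SOX10 cells were set against all other human cells. Its log2 ratio of CPM was 3.56 in HIP_4MPT, where 9 PDGFRA SOX10 cells held 33 UMIs, and -1.75 in PFC_4MPT, where 2 cells held 2 UMIs. The difference between the libraries was not tested, since each site has 1 library.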

How the results depend on the processing

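The share of PDGFRA SOX10 cells depended on the rule and on depth. With 3 or more UMIs it was 0.622% in HIP_4MPT, 0.682% in PFC_4MPT and 0 in HIP_2MPT; with a UMI of each gene 0.231%, 0.287%, and 0 in both 2MPT libraries; thinned to 1000 UMIs 0.371%, 0.474%, 0 in HIP_2MPT and 0.0175% in PFC_2MPT. Genes called fell to 790, 467 and 497 by DESeq2 and to 787, 544 and 787 for cells with a UMI of each gene, in the comparisons with all other, OLIG1 EGFR and AQP4 GFAP cells. With no replicate block, here no library block, they were 673, 438 and 1053. Other scaling, no filter, the dual reference, 3 or more UMIs, cells over 1500 UMIs and 3 libraries stayed within 1.5 times, as did 3 choices added after seeing the data (cells with OLIG1 or OLIG2, without the deepest 10%, with a PDGFRA UMI). Of 1983, 1050 and 1676 genes called, 1972, 1047 and 1672 had the same direction without one library and 1976, 1049 and 1676 without the other. The genes were called from these same libraries together, which largely sets this agreement in advance, so it is no separate check. The share of PDGFRA SOX10 cells with 2 or more committed and myelin UMIs was 86.5% in HIP_4MPT and 62.3% in PFC_4MPT unthinned (72.0% and 57.1% in AQP4 GFAP cells, 48.3% and 32.7% in OLIG1 EGFR cells), and 52.5% in PFC_4MPT at 1500 UMIs. For cell cycle genes the unthinned shares of PDGFRA SOX10 cells were 23% in HIP_4MPT and 28.3% in PFC_4MPT. They were 21.7% and 15.6% in AQP4 GFAP cells, and 32.6% and 26.5% in OLIG1 EGFR cells. At this cutoff of 2 UMIs, unthinned PDGFRA SOX10 cells thus lay close to AQP4 GFAP cells in HIP_4MPT, and the gap was wider in thinned counts. At 5 or more cell cycle UMIs the unthinned shares in HIP_4MPT were 16.2% of PDGFRA SOX10 cells and 2.02% of AQP4 GFAP cells.

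Named genes changed sign mostly where cells with SOX10 alone were left out. Against all other human cells, with a UMI of each gene or with a PDGFRA UMI, log2 fold changes became -6.70 and -6.71 for CLDN11, -10.32 and -0.077 for ST18 (-1.75 and 3.56 without either library) and -1.04 and -0.29 for ITPR2; genes with 0 UMIs in such cells make these fitted values no bound. EGFR, at -0.04 and not called, was 0.021 by DESeq2, 0.016 with its size factors, 0.36 with 3 libraries, 0.16 without the deepest 10%, 0.12 with a PDGFRA UMI, and 0.072 and 0.18 without 1 library. Against OLIG1 EGFR cells VCAN became -0.33 with a UMI of each gene. Against AQP4 GFAP cells CNP became -0.85 and -0.52, and ITPR2 -1.12 and -0.42 (-0.72 and 2.16 without either library) with a UMI of each gene and with a PDGFRA UMI, IGF1R -0.24 with a UMI of each gene, and BCAN -0.28, -0.15 and -0.30 with a UMI of each gene, 3 libraries and a PDGFRA UMI. The cause was not tested.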
